A study of Pinellia ternata with 6 samples.

Results

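The 7 unigenes described here were taken from the 62591 unigenes of a Pinellia ternata transcriptome. By protein name or pathway list they fall under sugar signalling, starch and sucrose metabolism, carbon fixation, or glyoxylate and dicarboxylate metabolism. They were chosen by the difference between T2Plus line and T2 line that earlier results of these data had shown. They are a trehalose 6-phosphate synthase/phosphatase (TPS, TRINITY_DN7111_c0_g1), the unigene with the steepest fall in the study's starch and sucrose list (TRINITY_DN5539_c0_g1), that with the steepest fall in its carbon fixation list (TRINITY_DN13328_c0_g1), phosphoenolpyruvate carboxylase kinase 1 (PPCK1, TRINITY_DN16812_c2_g1), glyoxysomal malate synthase (TRINITY_DN16258_c0_g1), and a pair from the glyoxylate and dicarboxylate list (TRINITY_DN11139_c1_g1 and TRINITY_DN1907_c1_g1). Because the contrast between the lines chose them, their own differences are given as a description and no test is attached to them. The 3 named members carry their names from the study's text or annotation. For the other 4, neither the text nor the annotation used here, which covers a part of the transcriptome, gave a protein name. They are called DN5539, DN13328, DN11139 and DN1907 and are described by list alone.

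RNA-seq was performed on whole seedlings of both lines at 30 days after planting, with 3 samples of each line. T2 line is an octoploid (2n = 104) bred from a single selected plant and propagated by tissue culture, and it served as the control. T2Plus line is its 16-ploid derivative (2n = 208), obtained by chromosome doubling with colchicine. Each line is thus 1 source, so doubled ploidy and any other change that came with the colchicine treatment cannot be told apart. The paper calls the 3 samples of each line independent biological replicates. Its protocol describes 5 seedlings mixed in each group and does not say whether each replicate was a pool of its own. The spread between replicates may therefore be partly technical.

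Trehalose 6-phosphate is a signalling sugar of plants. It is made by trehalose phosphate synthase, follows the supply of sucrose, and restrains the energy-sensing kinase SnRK1. Carbon dioxide is fixed in the chloroplast by the Calvin cycle and is stored as starch or exported as sucrose, whereas phosphoenolpyruvate carboxylase fixes bicarbonate in the cytosol and is made less sensitive to malate when its kinase phosphorylates it. The glyoxylate cycle, in which malate synthase joins glyoxylate and acetyl-CoA, turns stored fat into sugar and is best known from germinating oil-rich seeds. Pathway lists for glyoxylate and dicarboxylate metabolism also hold enzymes of photorespiration.

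Levels are given in FPKM, fragments scaled to transcript length and to sequencing depth, so that they can be compared between unigenes of different length. Differences are given on the log2(FPKM + 1) scale as T2Plus line minus T2 line, a scale that understates the change of weakly expressed unigenes. Ranks and shares are among the 28536 unigenes whose level reached 1 FPKM or more in no fewer than 3 samples. All 7 members passed this filter, but malate synthase passed it only through the T2Plus samples, so that it had to be higher there. All values describe whole seedlings, in which fewer cells of a type and less RNA per cell cannot be told apart. The FPKM values carry TMM scaling between samples, and they give a relative level and not an amount per cell.

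One sample stood apart. T2 line replicate 2 had the highest sum of the table and the fewest unigenes with at least 1 FPKM, 23270 against 27546 to 30755 in the other samples. The worth of 1 read, estimated from the steps between low values and set to 1 in T2 line replicate 1, was 0.740 in T2 line replicate 2 and 0.928 to 1.12 in the remaining samples, so that replicate 2 was the most deeply sequenced. Without it the log2 differences of the 7 members kept their directions, at 1.87 for TPS, −4.77 for DN5539, −1.74 for DN13328, −3.08 for PPCK1, 1.76 for malate synthase, 2.12 for DN11139 and −1.68 for DN1907.

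TPS was expressed at 16.4, 11.1 and 20.6 FPKM in replicates 1, 2 and 3 of T2 line, against 66.7, 75.4 and 67.1 FPKM in those of T2Plus line. The T2Plus samples lay close together and each was above each T2 sample, with T2 line replicate 2 the lowest of all. The mean level was 16.0 ± 4.76 (SD, n = 3) in T2 line against 69.7 ± 4.90 FPKM (SD, n = 3) in T2Plus line, a 4.36-fold higher level and a log2 difference of 2.09. TPS moved from rank 5928 in T2 line to rank 1241 in T2Plus line, and 1120 unigenes, or 3.92% of those kept, had a larger rise. In the study's starch and sucrose list it was the measured unigene with the largest rise, and the next was TRINITY_DN408_c0_g1 at 1.33, from 9.92 ± 2.08 to 26.1 ± 1.85 FPKM (SD, n = 3).

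DN5539 had the largest log2 difference of the 7. Its level was 247, 269 and 246 FPKM in T2 line and 7.15, 10.2 and 7.25 FPKM in T2Plus line. No T2Plus sample came near a T2 sample, and replicate 2 was the highest in both lines. The mean was 254 ± 12.9 (SD, n = 3) in T2 line against 8.18 ± 1.71 FPKM (SD, n = 3) in T2Plus line, 31.0-fold lower, with a log2 difference of −4.81. Only 29 of the unigenes kept had a larger fall. DN5539 was thus among the most abundant 0.883% of unigenes in T2 line, at rank 252, and stood at rank 8941 in T2Plus line. The unigene next to it in the same list, TRINITY_DN3834_c0_g1, differed by −1.52, with 172 ± 21.9 in T2 line against 59.3 ± 8.00 FPKM in T2Plus line (SD, n = 3).

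**Figure D1:**
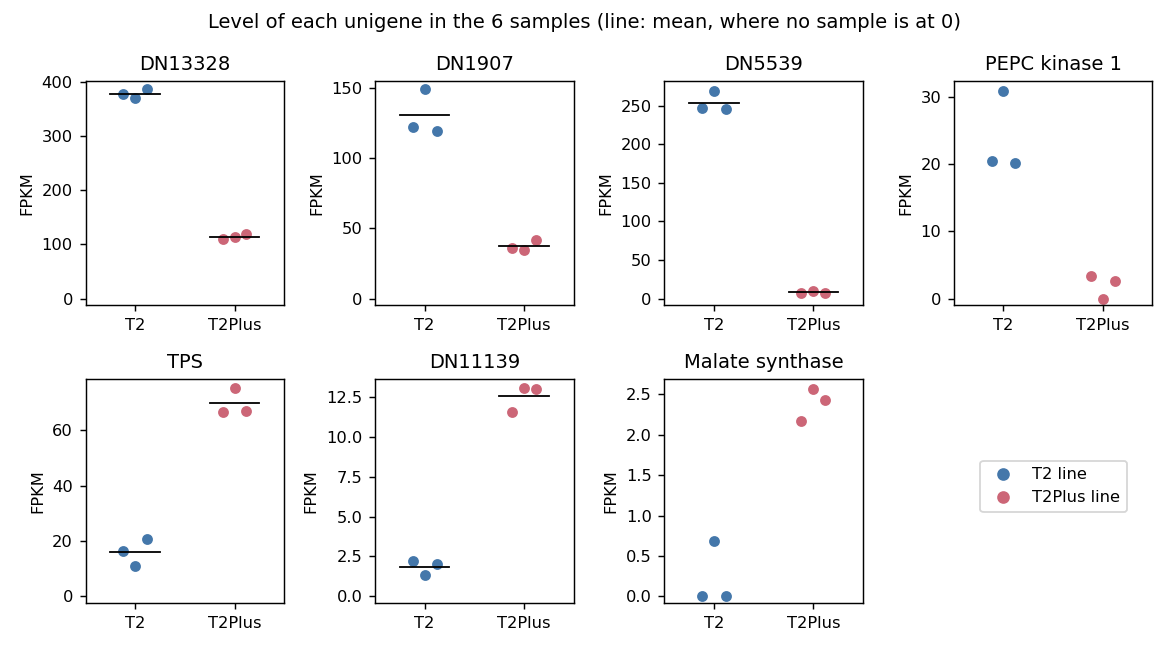
Level of each of the 7 unigenes in FPKM (vertical axis, from 0, a scale of its own in each panel) in the 3 samples of T2 line (blue) and of T2Plus line (red). Points stand for samples from replicate 1 to 3, left to right, and black lines for the mean where no sample was listed at 0. In each panel the 3 points of one line lie above the 3 of the other, and the lowest point, 0 FPKM, occurs for PEPC kinase 1 in T2Plus line replicate 2 and for malate synthase in T2 line replicates 1 and 3.

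DN13328 was the most abundant member in both lines and the one with the least spread in T2 line relative to its mean. It stood at 376, 369 and 387 FPKM in the samples of T2 line, against 109, 113 and 118 FPKM in those of T2Plus line. The samples of each line were nearly level with each other and the lines were far apart. The mean was 377 ± 9.05 in T2 line against 114 ± 4.69 FPKM in T2Plus line (SD, n = 3), 3.32-fold lower, with a log2 difference of −1.72 and a change of rank from 153 to 608. DN13328 is a member of 5 of the 16 complete pathway lists of the study, namely carbon fixation, glyoxylate and dicarboxylate metabolism, arginine biosynthesis, and the lists for alanine, aspartate and glutamate and for glycine, serine and threonine. Each of the other unnamed members, and TPS, is in 1 of these lists, and PPCK1 and malate synthase are in none. The unigene next to DN13328 in the carbon fixation list, TRINITY_DN4712_c0_g2, differed by −1.35, from 382 ± 70.2 to 148 ± 13.6 FPKM (SD, n = 3).

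PPCK1, the kinase that phosphorylates phosphoenolpyruvate carboxylase, stood at 20.5, 30.8 and 20.2 FPKM in T2 line. It was at 3.36 FPKM in T2Plus line replicate 1, was listed at 0 in replicate 2 and was at 2.68 FPKM in replicate 3. Each T2Plus sample was below each T2 sample, and the gap between the lines was 16.8 FPKM. The log2 difference was −3.27 and 213 unigenes had a larger fall, but no fold is given against a line with a value listed at 0. By mean level its rank went from 4373 to 20538.

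Malate synthase, whose best match is a soybean protein, was the least abundant member in T2 line and lay next to PPCK1 in T2Plus line. It was listed at 0 in T2 line replicates 1 and 3 and stood at 0.686 FPKM in replicate 2, against 2.18, 2.56 and 2.43 FPKM in the T2Plus samples. The T2Plus samples were all above the single T2 sample with a signal, which was also the most deeply sequenced one. The log2 difference was 1.51 with the added 1 FPKM, 3.64 with 0.1 added and 2.11 with 0.5 added, so its size depended on that choice. Divided by the worth of 1 read, the values were 0.927 in T2 line replicate 2 and 2.34, 2.32 and 2.30 in T2Plus line replicates 1, 2 and 3.

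The glyoxylate and dicarboxylate list held members that differed in opposite directions. DN11139 stood at 2.22, 1.34 and 2.02 FPKM in T2 line, against 11.6, 13.1 and 13.0 FPKM in T2Plus line. All T2Plus samples were well above all T2 samples, and T2 line replicate 2 was again the lowest. The mean was 1.86 ± 0.462 in T2 line against 12.5 ± 0.851 FPKM in T2Plus line (SD, n = 3), 6.75-fold higher, with a log2 difference of 2.26. It moved from rank 19390 to rank 6682, and the unigene of the list next to it was TRINITY_DN9415_c0_g1 at 1.33, with 57.7 ± 1.91 in T2 line against 146 ± 1.89 FPKM in T2Plus line (SD, n = 3).

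DN1907 reached 122, 149 and 119.6 FPKM in T2 line and only 35.9, 34.5 and 41.4 FPKM in T2Plus line. T2 line replicate 2 was the highest, and the lines did not overlap. The mean was 130.3 ± 16.3 in T2 line against 37.3 ± 3.66 FPKM in T2Plus line (SD, n = 3), 3.49-fold lower, with a log2 difference of −1.78 and a change of rank from 652 to 2595. It lay just beyond TRINITY_DN3949_c0_g1 at −1.73 and DN13328 at −1.72 in the same list.

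The value of DN1907 held for 1 isoform and not for the whole unigene. Each of the 7 members had 1 isoform row in the table, with assembly numbers above 1 (from i2 for malate synthase and DN1907 to i9 for DN11139), and the other isoforms were not analysed here. Set against the unigene level that accompanied the study's lists, after the constant factor of each sample was divided out, the rows of DN5539, DN13328 and DN11139 came to within 5% of it in all 6 samples. The row of DN1907 came to 100% of it in T2 line replicates 1 and 2 and in T2Plus line replicate 3, but to 86.7% in T2 line replicate 3, 55.6% in T2Plus line replicate 1 and 47.8% in T2Plus line replicate 2. With these shares divided out, DN1907 was still lower in each T2Plus sample, but by 2.30-fold in place of 3.49-fold, with a log2 difference of −1.22. As a unigene it was then no longer the steepest of its list, since 3 of the 10 other unigenes kept had a larger fall. Of those 10, only DN13328 and DN11139 were examined for the share that their rows hold, so this order is provisional. TPS, PPCK1 and malate synthase could not be examined in this way.

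In all, 3 members (TPS, malate synthase and DN11139) were higher in each T2Plus sample than in each T2 sample and 4 (DN5539, DN13328, PPCK1 and DN1907) were lower. Of all unigenes kept, 19.5% were higher in this sense and 16.4% lower, and since the members were chosen on this contrast nothing is read from their count. The starch and sucrose list and the glyoxylate list each gave a member from either end, so opposite directions within them followed from the choice. TPS was higher and DN5539 lower within the starch and sucrose list, DN11139 was higher and DN1907 lower within the glyoxylate list, and DN13328, which was lower, is in both the glyoxylate and the carbon fixation list.

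The order of the members by level differed between the lines. In T2 line it was DN13328, DN5539, DN1907, PPCK1, TPS, DN11139 and malate synthase, and the ranges of neighbours overlapped only for PPCK1 and TPS. In T2Plus line it was DN13328, TPS, DN1907, DN11139, DN5539, malate synthase and PPCK1. By the rows analysed, only the ranges of malate synthase and PPCK1 overlapped there. DN5539 went from the second place to the fifth and TPS from the fifth to the second, while DN13328 kept the first and DN1907 the third. For DN1907 the place and the range are those of its isoform row. That row held 55.6% and 47.8% of the unigene in T2Plus line replicates 1 and 2. With these shares divided out, the whole unigene in T2Plus line replicate 2 falls within the range of the TPS row, 66.7 to 75.4 FPKM. As a whole unigene DN1907 thus overlaps TPS in T2Plus line.

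**Figure D2:**
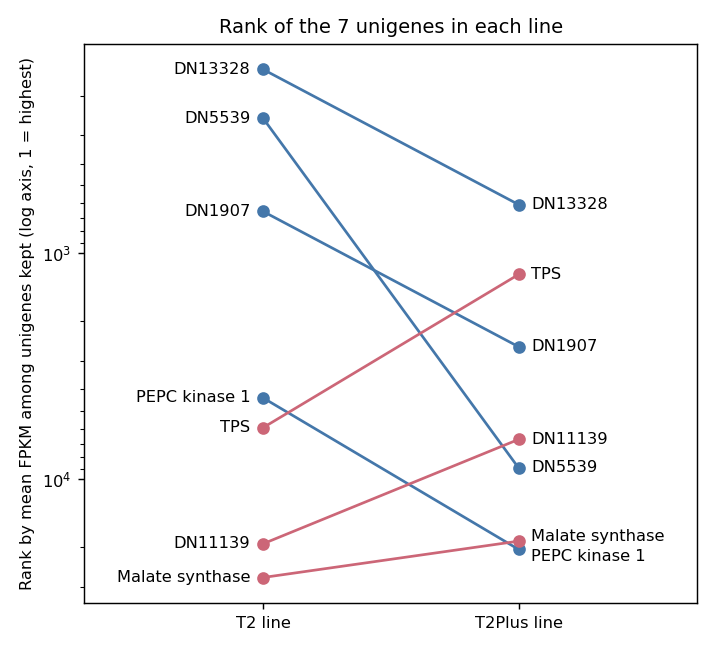
Rank of each of the 7 unigenes by mean FPKM among the unigenes kept, on an inverted log axis with rank 1 at the top, in T2 line (left) and T2Plus line (right). Lines join the same unigene, blue where the rank was poorer in T2Plus line and red where it was better. The line of DN5539 drops from rank 252 to rank 8941 and crosses that of TPS, which climbs from rank 5928 to rank 1241.

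Summed, the 3 members that were higher in T2Plus line came to 18.1 ± 4.77 in T2 line against 84.6 ± 5.60 FPKM in T2Plus line (SD, n = 3), 4.68-fold higher. The 4 that were lower came to 785 ± 28.0 in T2 line against 161 ± 7.66 FPKM in T2Plus line (SD, n = 3), 4.88-fold lower. TPS made up most of the first sum in both lines. DN13328 and DN5539 made up most of the second in T2 line, and DN13328 and DN1907 in T2Plus line. DN1907 enters these sums by its isoform row alone. The 7 members together took 0.133% to 0.141% of the summed FPKM in the T2 samples and 0.0441% to 0.0472% in the T2Plus samples.

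Ratios between members were taken within each sample, where the factor by which a sample was scaled cancels for FPKM, though not wholly for log2 values of FPKM + 1 at low levels. DN5539 was 15.1, 24.3 and 12.0 times the level of TPS in the T2 samples. In the T2Plus samples it was 0.107, 0.135 and 0.108 times the level of TPS. The more abundant unigene of this pair was thus DN5539 in each T2 sample and TPS in each T2Plus sample, and the log2 ratio of FPKM + 1 went from 3.94 ± 0.49 to −2.96 ± 0.16 (SD, n = 3), a difference of −6.90.

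DN13328 was 169.6, 276 and 192 times the level of DN11139 in the T2 samples and 9.44, 8.68 and 9.11 times in the T2Plus samples. It remained the more abundant of the pair in every sample, and the log2 ratio differed by −3.98. DN1907, by its isoform row and not as a whole unigene, was 55.1, 111 and 59.3 times the level of DN11139 in the T2 samples. In the T2Plus samples it was 3.10, 2.65 and 3.19 times that level. Its log2 ratio differed by −4.03, and the highest ratio to DN11139 was in T2 line replicate 2 for both. For PPCK1 and malate synthase, which were both listed at 0 in some samples, the log2 ratio, whose size depended on the added 1 FPKM, was 4.42, 4.24 and 4.40 in the T2 samples and 0.46, −1.83 and 0.11 in the T2Plus samples.

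**Figure D3:**
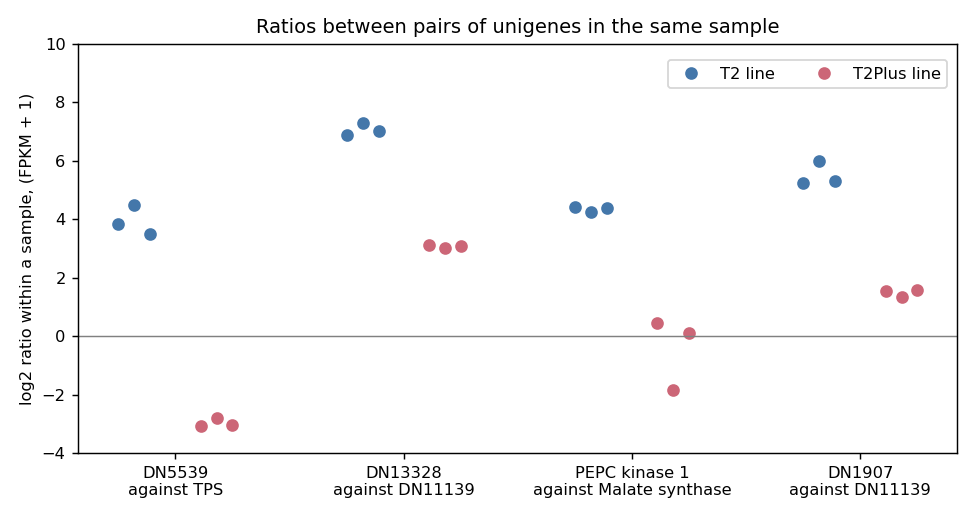
Log2 ratio of FPKM + 1 between 2 unigenes of the same sample (vertical axis) for 4 pairs, with the samples of T2 line in blue and those of T2Plus line in red, replicates 1 to 3 from left to right. Only the pair DN5539 and TPS lies on opposite sides of 0 in all samples of the lines, with a mean of 3.94 in T2 line and −2.96 in T2Plus line, and the lowest point of PPCK1 against malate synthase is the T2Plus sample in which PPCK1 was listed at 0.

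Profiles over the 6 samples were compared by the rows analysed, which for DN1907 is 1 isoform and not the whole unigene. With its shares divided out, DN1907 had a log2 difference of −1.22 against −1.72 for DN13328, and its distances were not recomputed. By these rows, the members that lay nearest were DN13328 and DN1907. The root mean square difference of their log2(FPKM + 1) values, each centred on its own mean, was 0.13. Next came TPS and DN11139 at 0.18, and the farthest pair was DN5539 and DN11139 at 3.54. By the differences of −1.22 and −1.72 alone, DN1907 as a whole unigene lies farther than 0.18 from DN13328. The first place of that pair is thus that of the rows. DN11139, also of the glyoxylate list, lay 1.99 from DN13328 and 2.03 from DN1907. Since the members were chosen on the contrast between the lines, nothing is read from these distances. The same measure was used to find the nearest of 217 other unigenes with a protein name in the annotation used here, which covers a part of the transcriptome. Other unigenes kept, outside these 217, lay nearer than the first of them in every case (from 4 for DN13328 to 507 for PPCK1). For DN13328 this was NAD kinase 2 of the chloroplast (TRINITY_DN12657_c0_g1), which makes NADP, at 0.07 and with a log2 difference of −1.82, from 77.9 ± 2.84 to 21.4 ± 1.39 FPKM (SD, n = 3), and then probable plastid-lipid-associated protein 13 (TRINITY_DN11462_c0_g2) at 0.19. The isoform row of DN1907 had the same neighbours in the opposite order, at 0.11 for the plastid-lipid-associated protein and 0.13 for NAD kinase 2.

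For both TPS and DN11139 the nearest named unigene was the GDSL esterase/lipase APG (TRINITY_DN16209_c0_g1), at 0.31 and 0.24. It went from 10.8 ± 1.15 in T2 line to 46.0 ± 7.72 FPKM in T2Plus line (SD, n = 3). The second was the probable receptor-like protein kinase At1g49730 for TPS (0.44) and the AAA-ATPase At3g28580 for DN11139 (0.38). The neighbours of malate synthase were the mitochondrial 10 kDa chaperonin (0.25) and probable protein phosphatase 2C 42 (0.30). For DN5539 and PPCK1 the named neighbours were more distant, and the first for both was protein HYPER-SENSITIVITY-RELATED 4, at 1.24 and 0.90, followed by the transcription factor ERF110 (1.38) for DN5539 and the lectin-domain receptor kinase IX-1 (0.95) for PPCK1.

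The lists from which 5 of the members came were lower in T2Plus line by their median. The study chose these lists on the same contrast, and their counts therefore give no independent evidence of direction. Calls here rest on limma with Benjamini-Hochberg adjustment over all unigenes kept, an adjusted p up to 0.05 and a 2-fold or larger difference, which called 7.22% of the unigenes kept as up-regulated and 6.3% as down-regulated. Of the carbon fixation list, 6 of 14 unigenes were kept, all 6 had a lower mean in T2Plus line and 5 were down-regulated, with a median difference of −1.29. Of the starch and sucrose list, 7 of 16 were kept, of which 2 were up-regulated and 4 down-regulated, with a median of −1.07. Of the glyoxylate list, 11 of 15 were kept, of which 2 were up-regulated and 6 down-regulated, with a median of −1.03. The median over all unigenes kept was 0.10.

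**Figure D4:**
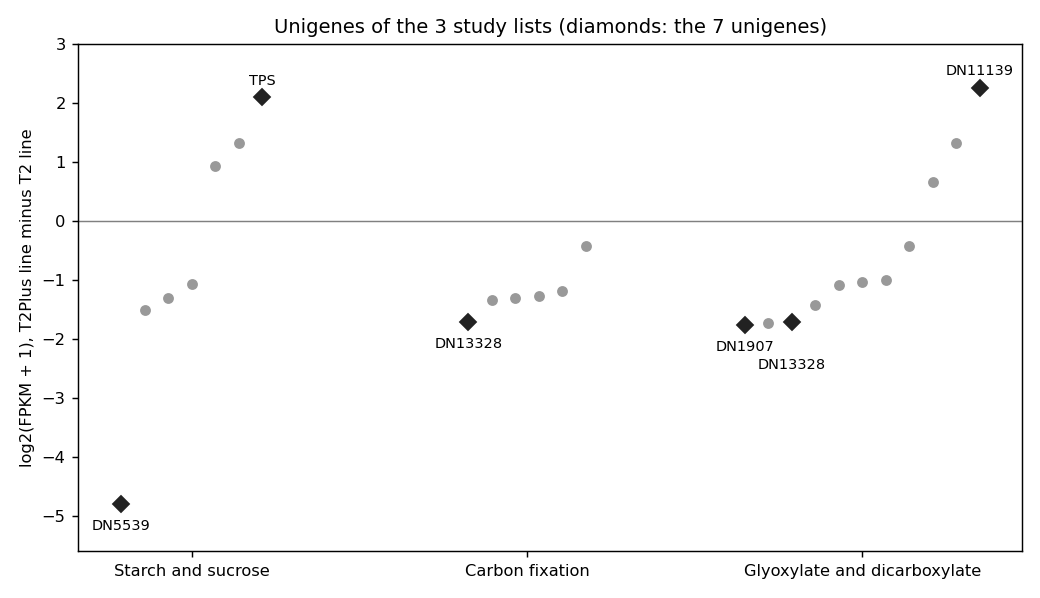
Difference of log2(FPKM + 1), T2Plus line minus T2 line (vertical axis), of each unigene kept from the study's lists for starch and sucrose, carbon fixation and glyoxylate and dicarboxylate metabolism, in order of the difference within a list. Black diamonds are members, which are named, and grey circles are other unigenes. DN5539 at −4.81 stands clear of the next at −1.52, whereas DN1907, by its isoform row, at −1.78 lies beside its neighbour at −1.73.

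The few transcripts named as chloroplast proteins took a lower share in T2Plus line as well. The annotation used here named 457 unigenes, only a part of the transcriptome, and 27 of those analysed had chloroplast in their name. They held 0.745% to 0.882% of the summed FPKM in the T2 samples and 0.558% to 0.673% in the T2Plus samples. Of the 27, 25 were kept, 16 with a lower and 9 with a higher mean log2 level in T2Plus line. The median difference was −0.28. Of all unigenes kept, 54.8% had a higher mean log2 level. Among the 25, 4 were down-regulated and 0 up-regulated, against 6.3% and 7.22% of all unigenes kept. The part of the lower chloroplast share in the lower levels of DN13328 and of the carbon fixation list was not tested. The 43 named unigenes whose best match lies outside the green plants took 0.151% to 0.156% and 0.160% to 0.165%.

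Beyond these lists, 25 carbon metabolism unigenes were gathered by protein name, in groups for trehalose and energy signalling, starch and sucrose enzymes, sugar and polyol transport, peroxisome and photorespiration, and organic acid enzymes. The table held 11 of them and 10 were kept. None was up-regulated and 1 was down-regulated, where 7.22% and 6.3% of all unigenes kept were so called. An unadjusted p under 0.05 by limma was found for 3 of the 10 and for 29.8% of all unigenes kept. Their differences ran from −1.04 to 1.02, with a median of −0.07. No transporter of the list was among the unigenes analysed.

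The down-regulated unigene was the peroxisomal enoyl-CoA delta isomerase ECI2 (TRINITY_DN35729_c1_g1), an enzyme of fatty acid beta-oxidation. It fell from 54.4 ± 5.87 in T2 line to 25.9 ± 1.53 FPKM in T2Plus line (SD, n = 3), with a log2 difference of −1.04 (SE 0.12) and an adjusted p of 0.00344 by limma. It lay near the 2-fold limit, and the call was lost at −0.97 without T2 line replicate 2, at −0.998 without T2Plus line replicate 3, at −0.92 with the samples rescaled to the same sum and at −0.93 with quantile normalization.

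Of the trehalose and energy signalling group, 2 unigenes were kept and neither was called. They are named here after their values were seen. Trehalose-phosphate synthase 6 (TPS6, TRINITY_DN18457_c0_g1), a relative of TPS, stood at 56.9 ± 1.63 in T2 line against 53.4 ± 5.57 FPKM in T2Plus line (SD, n = 3), a log2 difference of −0.09 (SE 0.11, adjusted p = 0.620 by limma). TPS6 was thus more abundant than TPS in T2 line and less abundant in T2Plus line. KING1 (TRINITY_DN48190_c0_g1), a regulatory gamma subunit of SnRK1, stood at 124 ± 18.5 and 105 ± 4.11 FPKM (SD, n = 3), with a log2 difference of −0.23 (adjusted p = 0.280 by limma).

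The starch and sucrose group had 5 unigenes kept and none was called. Sucrose synthase 7 (SUS7), also named after its values were seen, stood at 8.05 ± 0.573 in T2 line against 15.5 ± 1.16 FPKM in T2Plus line (SD, n = 3). The log2 difference of 0.86 had an adjusted p of 0.0153 by limma but was under 2-fold. With the samples rescaled to the same sum it passed the 2-fold limit, at 1.02. Its adjusted p by limma was 0.0608 without T2Plus line replicate 1, 0.0694 without T2Plus line replicate 2 and 0.0693 with a replicate block.

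Finally, 4 unigenes shared an assembly cluster with a member, and whether reads were divided between such unigenes was not tested. Of these, 3 were kept, none was called, and all 3 had an unadjusted p under 0.05 by limma, as had 29.8% of all unigenes kept. TRINITY_DN1907_c0_g3 stood at 27.7 ± 2.72 in T2 line against 42.8 ± 2.52 FPKM in T2Plus line (SD, n = 3), opposite in direction to DN1907, with a log2 difference of 0.61 and an adjusted p of 0.0175 by limma, under 2-fold. Its adjusted p by limma was 0.00837 without T2 line replicate 2, but 0.0570 to 0.0749 with any other sample left out. It was 0.0938 without the intensity trend and 0.0789 with a replicate block.

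The other pair shared the cluster of PPCK1. TRINITY_DN16812_c2_g3 stood at 5.72, 17.6 and 16.8 FPKM in T2 line, was listed at 0 in T2Plus line replicates 1 and 3 and was at 6.27 FPKM in T2Plus line replicate 2, the sample in which PPCK1 itself was listed at 0. Its lines overlapped and its adjusted p was 0.0857 by limma. TRINITY_DN16812_c1_g1 stood at 13.0 ± 3.10 in T2 line against 5.93 ± 3.11 FPKM in T2Plus line (SD, n = 3), with an adjusted p of 0.0891 by limma. The first was called down-regulated at −3.71 without T2Plus line replicate 2 and the second at −1.43 without T2Plus line replicate 3. The last of the 4, TRINITY_DN16258_c1_g1 in the cluster of malate synthase, was listed at 0 in 5 samples and was at 3.54 FPKM in T2Plus line replicate 2.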

How the data were processed

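Reads were trimmed with Trimmomatic 0.36 and examined with FastQC 0.11.5, per the submitters' processing notes, and were assembled de novo with Trinity (k-mer 25). The authors deposited, for each isoform and sample, an RSEM estimate of FPKM with TMM scaling. The unit follows the paper, since the file does not settle whether they are FPKM or TPM. For the aligner, and for the versions of RSEM and Trinity, the sources used here give nothing. The study called differences with DESeq, whose input was not used here.

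The table analysed held 65535 isoforms of 62591 unigenes, a part of the assembly. Samples were grouped by the titles and ploidy in the labels. Isoform values were summed per unigene, 28536 unigenes reaching 1 FPKM in 3 or more of 6 samples were kept, and log2(FPKM + 1) was compared between lines in limma 3.58.1 (R 4.3.3), allowing the variance to follow intensity, with adjustment over all unigenes kept. Python 3.11.15 was used for the rest. The table itself shows depth only as the relative worth of 1 read, taken from the commonest ratio between samples among low isoforms.

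Members and lists were chosen with earlier results of these data known. Unigenes named are the 7 members, the unigene next to each listed extreme, those of the carbon metabolism list and of the shared assembly clusters that were called (1 in all), and the 2 nearest named profiles of each member. TPS6, KING1, SUS7 and the 4 unigenes of the shared clusters fall outside this rule and were named after their values were seen. The carbon list has 25 unigenes, chosen by protein name from the 457 unigenes named in the annotation used here, a part of the transcriptome. Alternatives were the filter, the pseudocount, the highest isoform, other scalings, no trend, a replicate block, adjusted p alone and each sample left out; division by the per-sample factor, and by the share of DN1907 that its row holds, was added after the data were seen. No sequence is printed.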

Additional observations from a re-analysis of the deposited data

How the results depend on the processing

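Of 92 alternative values of the 7 member differences, 79 stayed within the spread between replicates, 13 moved and 0 reversed. The 79 include the highest isoform and the replicate block, which could not change a member's difference. Each member had 1 isoform row, and each replicate number occurs in both lines. DN13328 was −1.59 when the samples were rescaled to a sum of 1000000, −1.44 with quantile normalization and −1.57 with the per-sample factors divided out, an alternative chosen after seeing the data. DN1907 was −1.62 with quantile normalization and −1.22 with the shares that its isoform row held divided out, also chosen after seeing the data. With a pseudocount of 0.1, PPCK1 was −4.57, malate synthase 3.64 and DN11139 2.72, and with 0.5 malate synthase was 2.11 and DN11139 2.48. Rescaling gave 2.10 for malate synthase and 2.57 for DN11139, and quantile normalization gave 1.19 for malate synthase. The log2 ratio differences with a pseudocount of 0.1 were −4.45 for DN13328 against DN11139, −8.21 for PPCK1 against malate synthase and −4.52 for DN1907 against DN11139. Apart from the shares, which restore the unigene level, the cause of these shifts was not tested. Rescaling, after which the filter was applied again, gave a median of 0.23 over 31245 unigenes, against 0.10 over 28536. Division by the factors moved the median of those 28536 to 0.21. These factors, of the values analysed against the paper's, were 1.08 to 1.13 in T2 line and 0.983 to 1.00 in T2Plus line.

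Leaving out 1 sample at a time gave ranges of 1.87 to 2.29 for TPS, −4.96 to −4.73 for DN5539, −1.75 to −1.70 for DN13328, −3.67 to −2.60 for PPCK1, 1.38 to 1.76 for malate synthase, 2.12 to 2.35 for DN11139 and −1.85 to −1.68 for DN1907. The count of up-regulated unigenes ran from 1463 to 1947 and that of down-regulated unigenes from 1270 to 1628, against 2061 and 1799 with all samples. For the carbon metabolism list these ranges were 0 to 0 up-regulated and 0 to 1 down-regulated, lost without T2 line replicate 2 or T2Plus line replicate 3, and for the shared clusters 0 to 0 and 0 to 1, gained without T2Plus line replicate 2 or 3.

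Without a filter 1073 unigenes were up-regulated and 1142 down-regulated, and with a mean of at least 5 FPKM, which left fewer unigenes, 753 and 1050. In the carbon metabolism list, rescaling gave 1 up-regulated and 0 down-regulated, quantile normalization 0 down-regulated, and adjusted p alone 1 up-regulated. Adjusted p alone also gave 1 up-regulated unigene of the shared clusters. Same-numbered replicates of the lines did not deviate together (r = 0.04, −0.03 and −0.07 across unigenes, which are not independent), so the numbers do not pair the samples. A fit with a replicate block gave 1169 up-regulated and 1146 down-regulated. The planned comparison of isoform shares, with its alternatives, was not run because each member had 1 isoform row. The low values of malate synthase and of PPCK1 in T2Plus line rest on few reads of unknown number.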
